A study of Mus musculus with 6 samples.

Results

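The 10 genes described here are the Notch receptors Notch1, Notch2, Notch3 and Notch4, the ligands Dll4, Jag1 and Jag2, and the target genes Hes1, Hey1 and Heyl, taken by name from a table of 48897 genes. All 10 were found, and all 10 passed the filter on low counts. They were chosen with the comparison of PHx with Sham already known, and Notch3 and Heyl were set against the endothelial members because of their values in it. Differences between the groups in these 10 genes are therefore given as a description and without p-values.

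PHx stands for partial hepatectomy, an operation that takes out part of the liver, and Sham for a control operation. The groups were PHx and Sham mice of the strain C57BL/6, listed as 7 to 8 weeks old, both sampled 14 days after surgery, with 3 libraries each, numbered 1, 3 and 4. RNA came from cells labelled liver sinusoidal endothelial cells, which were captured on magnetic beads through their CD146, the product of Mcam. Pericytes and smooth muscle cells make that protein too. No label says whether the libraries are separate animals or pools, so p-values measure only the spread between these libraries, which may be technical.

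Notch receptors are membrane proteins that are cut when a ligand on a neighbouring cell binds them. The freed intracellular domain joins the DNA-binding protein RBPJ and switches on genes such as those of the Hes and Hey families, which encode transcriptional repressors. In blood vessels Notch1, Notch4 and Dll4 are known from endothelial cells, where they take part in sprouting and in arterial fate. Notch3 and Heyl are known from the smooth muscle cells and pericytes around vessels, and Jag1 and Notch2 from several cell types, among them cells of the bile ducts.

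The libraries held between 38765116 and 51888481 counts, and each of the 10 genes had at least 144 counts in every library. Levels are in CPM, which are counts scaled to a fixed library total, and a gene with no count in a library may still lie at up to 3 counts, which is 0.0578 to 0.0774 CPM and covers counting error only. Neutrophil markers set PHx 4 apart. The 8 of them summed to 553, 23.2 and 3804 CPM in PHx 1, 3 and 4, against 268, 142 and 22.5 CPM in Sham 1, 3 and 4. The mitochondrial share of counts was highest in PHx 1, at 2.36%, and lay from 1.20% to 1.56% elsewhere. Markers of the labelled cell type were abundant. The 10 sinusoidal endothelial markers, led per length by the Fc receptor Fcgr2b and by Dnase1l3, summed to between 15824 and 25161 CPM in PHx and between 30004 and 31144 CPM in Sham, and none was at 0 in any library.

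Promoter windows of 300 bases were matched for 7 of the 10 genes in the RefSeq table of GRCm38.p6, the build of the deposited table. The windows run from 250 bases before to 50 bases after the start of transcription. Hes1, Hey1 and Heyl had no match. Shown here are Notch3, the receptor with the largest difference between the groups, Notch4, the receptor on the same chromosome with a difference of the other sign, and Dll4, the most abundant ligand. Capitals mark the GC box GGGCGG, the letters bound by Sp1-type factors, on either strand. The Notch3 window lies at chr17:32166841-32167140 on the minus strand, that of Notch4 at chr17:34564045-34564344 on the plus strand, and that of Dll4 at chr2:119325534-119325833 on the plus strand.
Notch3: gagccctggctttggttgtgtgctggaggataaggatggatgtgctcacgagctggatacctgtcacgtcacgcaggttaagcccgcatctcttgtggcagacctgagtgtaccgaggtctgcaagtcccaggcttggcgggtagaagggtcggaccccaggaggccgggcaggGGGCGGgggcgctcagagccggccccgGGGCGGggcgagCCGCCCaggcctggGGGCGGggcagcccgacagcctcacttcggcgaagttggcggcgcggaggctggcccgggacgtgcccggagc
Notch4: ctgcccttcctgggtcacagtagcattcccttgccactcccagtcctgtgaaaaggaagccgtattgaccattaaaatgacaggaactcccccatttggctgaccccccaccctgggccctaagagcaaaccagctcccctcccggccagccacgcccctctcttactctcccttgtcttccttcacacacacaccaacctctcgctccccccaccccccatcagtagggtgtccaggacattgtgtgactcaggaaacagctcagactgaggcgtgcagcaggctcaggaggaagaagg
Dll4: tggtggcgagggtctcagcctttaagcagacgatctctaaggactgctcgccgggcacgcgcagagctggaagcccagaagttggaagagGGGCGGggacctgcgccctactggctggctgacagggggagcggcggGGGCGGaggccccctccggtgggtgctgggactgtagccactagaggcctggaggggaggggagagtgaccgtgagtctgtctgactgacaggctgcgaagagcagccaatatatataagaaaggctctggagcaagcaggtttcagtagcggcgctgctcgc
The Notch3 window held 4 GC boxes, that of Notch4 held 0 and that of Dll4 held 2, where 35.7% of all 32841 promoter windows in the table held at least a single match. G and C made up 70.0%, 58.3% and 63.7% of these windows. Among the other matched members, Notch1 had 5 matches, Notch2 had 7, Jag2 had 5, a pair of them overlapping, and Jag1 had 0. The RBPJ core TGGGAA, the ETS core CCGGAA, the TATA box TATAAA and the CArG box of serum response factor were also sought on both strands. None of them was in any of the 7 windows, while 25.6%, 14.9%, 13.6% and 1.63% of all windows held them. Except in the CArG box only these exact letters were sought, so variant forms were not counted. The Dll4 window holds the run tatataag, which the search for TATAAA did not count. These matches are a description of letters in the windows and were not tested against the expression values.

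Among the receptors, Notch3 stood apart. Its levels were 32.0, 26.3 and 73.7 CPM in PHx 1, 3 and 4, against 9.17, 6.73 and 7.29 CPM in Sham 1, 3 and 4. Every PHx library lay above every Sham library, and PHx 4 was far above the other PHx libraries. The means were 44.0 ± 25.9 CPM in PHx and 7.73 ± 1.28 CPM in Sham (SD, n = 3 each), a ratio of 5.69 and a fitted log2 fold change of 2.51 ± 0.42 (SE). Notch3 (chromosome 17, 32120820 to 32166896, mm10) did not pass the threshold in edgeR's quasi-likelihood fit of all libraries. Of 13 other settings it passed in 2. These were that fit without PHx 4, with a log2 fold change of 1.91, and DESeq2 with all libraries. Since Notch3 was picked from this comparison, nothing rests on these calls.

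The endothelial receptors Notch1 and Notch4 were far more abundant and differed in the other direction. Notch1 (chromosome 2, 26457902 to 26503822) had 840, 865 and 740 CPM in PHx 1, 3 and 4, against 1125, 1047 and 857 CPM in Sham 1, 3 and 4. The groups overlapped, because PHx 3 exceeded Sham 4. Its log2 fold change was -0.31 ± 0.15 (SE). Notch4 (chromosome 17, 34564277 to 34588543) had 291, 346 and 240 CPM in PHx, against 413, 403 and 408 CPM in Sham. Its groups did not overlap, and the Sham libraries lay close together while the PHx libraries were spread, with a log2 fold change of -0.48 ± 0.15. Notch2 (chromosome 3, 98013538 to 98150367) had 80.4, 45.1 and 119 CPM in PHx 1, 3 and 4, against 67.8, 56.6 and 36.7 CPM in Sham 1, 3 and 4. Its groups overlapped, PHx 4 was again the highest, and the log2 fold change was 0.60 ± 0.39. Neither edgeR nor DESeq2 called Notch1, Notch2 or Notch4.

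Of the ligands, Jag1 had higher and Dll4 lower values in PHx, without passing the threshold in edgeR's fit, and Jag2 was scarce. Dll4 (chromosome 2, 119325784 to 119335666) had 245, 349 and 293 CPM in PHx 1, 3 and 4, against 362, 357 and 444 CPM in Sham 1, 3 and 4. The groups did not overlap, but PHx 3 lay just below Sham 3. The log2 fold change was -0.39 ± 0.16. Jag1 (chromosome 2, 137081451 to 137116520), which encodes a ligand shared by endothelium, smooth muscle and bile duct cells, had 145, 96.0 and 130 CPM in PHx 1, 3 and 4, against 78.2, 66.3 and 68.9 CPM in Sham 1, 3 and 4. All PHx libraries were above all Sham libraries, and the log2 fold change was 0.80 ± 0.16. Of 13 other settings Jag1 passed in 3. These were edgeR without PHx 3 (log2 fold change 0.94), edgeR without the low-count filter (0.77) and DESeq2 (0.79). Jag2 (chromosome 12, 112907803 to 112929517) had 4.33, 2.95 and 5.83 CPM in PHx, against 5.12, 3.79 and 3.98 CPM in Sham, and its groups overlapped with a log2 fold change of 0.03 ± 0.31.

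Heyl, which encodes a repressor known from the mural cells of vessels, had the second widest gap between the groups after Notch3. It had 19.7, 24.2 and 31.1 CPM in PHx 1, 3 and 4, against 6.97, 6.69 and 5.93 CPM in Sham 1, 3 and 4. All PHx libraries were above all Sham libraries by a wide margin. The means were 25.0 ± 5.73 CPM in PHx and 6.53 ± 0.54 CPM in Sham (SD, n = 3 each), a ratio of 3.83 and a log2 fold change of 1.94 ± 0.20. Heyl lies on chromosome 4 (123233556 to 123249870). It was the only member that edgeR's fit of all libraries called, where DESeq2 also called Notch3 and Jag1, and since it was picked from this comparison nothing rests on the call. The edgeR call was lost without Sham 1, Sham 3 or Sham 4, with log2 fold changes of 1.96, 1.92 and 1.83.

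The other targets were less far apart. Hey1 (chromosome 3, 8663359 to 8667038), known from endothelial and arterial cells, had 10.9, 12.3 and 14.4 CPM in PHx 1, 3 and 4, against 6.47, 7.62 and 9.35 CPM in Sham 1, 3 and 4. Its groups did not overlap, and its log2 fold change was 0.68 ± 0.20, opposite in sign to those of Notch1, Notch4 and Dll4. Hes1 (chromosome 16, 30065357 to 30067796), a target in many cell types that also responds to signals other than Notch, had 297, 258 and 305 CPM in PHx, against 127, 214 and 278 CPM in Sham. The groups overlapped, because Sham 4 exceeded PHx 3, and Sham 1 was the lowest. Its log2 fold change was 0.47 ± 0.27.

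**Figure D1:**
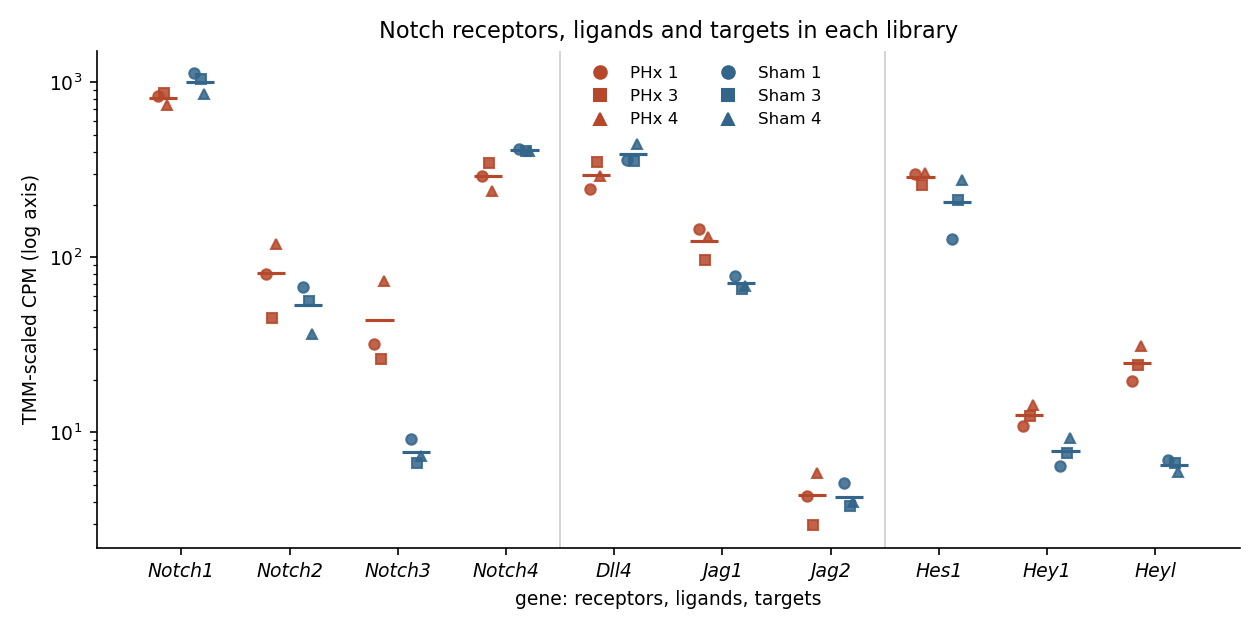
Each point is a library, in TMM-scaled CPM on a log axis, for the 4 receptors, 3 ligands and 3 targets, with PHx left of Sham, and the bars are means of 3 libraries. Notch3 and Heyl show the widest gaps between the groups, while Notch1, Notch4 and Dll4 are abundant and somewhat lower in PHx.

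Counted over the 10 members, edgeR called 1 higher (Heyl) and 0 lower at a Benjamini-Hochberg adjusted p under 0.05. Over all 19033 tested genes 0.846% were called higher and 0.0158% lower, 0.862% in all. The groups did not overlap for 6 members, with 4 having all PHx above all Sham (Notch3, Jag1, Hey1 and Heyl) and 2 all PHx below all Sham (Notch4 and Dll4). That share was 20.5% over all tested genes, 10.6% upwards and 9.96% downwards. The median log2 fold change was 0.54 over the 10 members and 0.03 over all tested genes. This comparison chose the members, so nothing is read from these counts.

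Levels of different genes can be compared only per length, and the authors' RPKM values (counts scaled by gene length and library total) were used for that. In PHx the order was Hes1 at 168 ± 19.0, Notch1 at 87.1 ± 8.82, Dll4 at 86.3 ± 12.2, Notch4 at 42.1 ± 7.54, Jag1 at 10.7 ± 2.55, Notch2 at 7.86 ± 3.50, Heyl at 5.56 ± 1.11, Notch3 at 5.47 ± 3.11, Hey1 at 5.24 ± 0.58 and Jag2 at 0.89 ± 0.29 RPKM (SD, n = 3). Neighbours in this order overlapped for Notch1 and Dll4, and for each step from Jag1 down to Hey1. In Sham the order was Hes1 at 118 ± 44.0, Dll4 at 111 ± 14.3, Notch1 at 105 ± 13.7, Notch4 at 57.3 ± 0.12, Jag1 at 5.99 ± 0.45, Notch2 at 5.04 ± 1.44, Hey1 at 3.19 ± 0.61, Heyl at 1.42 ± 0.11, Notch3 at 0.94 ± 0.14 and Jag2 at 0.85 ± 0.13 RPKM (SD, n = 3). Here Hes1, Dll4 and Notch1 overlapped with each other in turn, as did Jag1 with Notch2, Notch2 with Hey1, and Notch3 with Jag2. Heyl and Notch3 thus stood below Hey1 in all Sham libraries and overlapped with it in PHx. The ratio of Heyl to Hey1 in RPKM was 0.968, 1.04 and 1.15 in PHx 1, 3 and 4, against 0.575, 0.469 and 0.339 in Sham 1, 3 and 4.

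Notch1 and Notch4 made up most of the receptor transcripts in every library. Per length, Notch3 took 2.79%, 2.20% and 6.87% of the summed RPKM of the 4 receptors in PHx 1, 3 and 4, against 0.612%, 0.478% and 0.590% in Sham 1, 3 and 4. Notch1 took 61.0% ± 1.93 in PHx and 62.2% ± 2.70 in Sham, and Notch4 took 29.4% ± 3.78 in PHx and 34.3% ± 3.29 in Sham (SD, n = 3 each). Even in PHx 4, the library richest in Notch3, the transcript remained a small part of the receptor pool. Of the summed RPKM of Dll4, Dll1, Jag1 and Jag2, Dll4 took 76.2% ± 6.09 in PHx and 83.2% ± 3.60 in Sham, and Jag1 took 9.62% ± 2.80 in PHx and 4.53% ± 0.57 in Sham. The ratio of Jag1 to Dll4 in RPKM was 0.174, 0.0811 and 0.130 in PHx 1, 3 and 4, against 0.0637, 0.0547 and 0.0457 in Sham 1, 3 and 4. These shares were not tested. RPKM depends on the gene length listed in the table, which ran from 1730 bases for Hes1 to 11720 bases for Jag1.

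**Figure D2:**
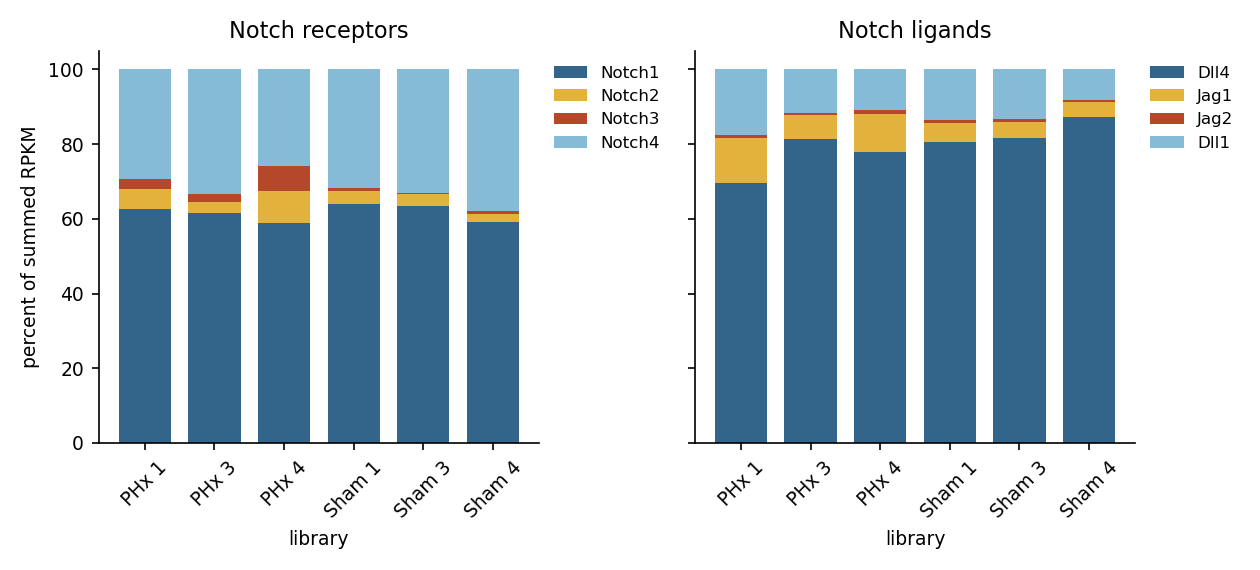
Stacked bars give each gene's percent of the summed RPKM of the 4 receptors and of 4 ligands in every library, with PHx left of Sham. Notch1 and Notch4, and among the ligands Dll4, fill most of each bar, and Notch3 reaches 6.87% of the receptors in PHx 4.

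Notch3 and Heyl were set against the endothelial members Notch1, Notch4, Dll4 and Hey1 as mean log2 CPM within each library. The pair averaged 4.65, 4.66 and 5.58 in PHx 1, 3 and 4, against 3.01, 2.76 and 2.73 in Sham 1, 3 and 4. The endothelial members averaged 7.32, 7.57 and 7.37 in PHx, against 7.51, 7.53 and 7.61 in Sham, and their groups overlapped. The pair thus lay 2.45 ± 0.59 below the endothelial members in PHx and 4.72 ± 0.20 below them in Sham on the log2 scale (SD, n = 3 each). CPM takes no account of gene length, so the size of these gaps is no comparison of levels between genes. Only the change of the gap between the groups is free of length. The gap differed by 2.26 between the groups. With Jag1 and Jag2 counted among the endothelial members it differed by 2.09, and without PHx 4 by 1.93. Since the pair was picked for this difference, it carries no test. The near-level endothelial average also joins Hey1, which was higher in PHx, with Notch1, Notch4 and Dll4, which were lower.

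**Figure D3:**
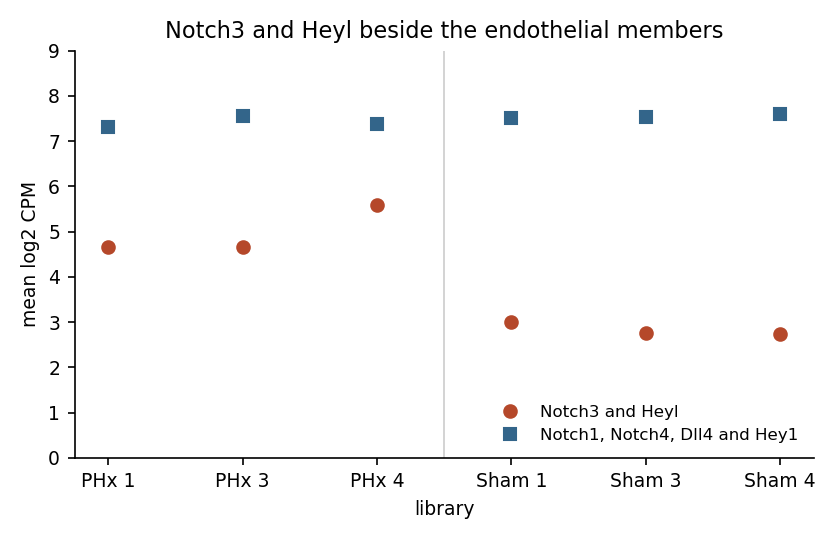
Points are the mean log2 CPM of Notch3 and Heyl (circles) and of Notch1, Notch4, Dll4 and Hey1 (squares) in each library, with PHx left of Sham. The circles lie between 4.65 and 5.58 in PHx and between 2.73 and 3.01 in Sham, while the squares stay between 7.32 and 7.61.

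Markers of other cells were measured in the same libraries. In bulk RNA, fewer cells of a type and less RNA per cell cannot be told apart. Of 12 smooth muscle and pericyte markers 6 were called higher and 0 lower in PHx, where 0.846% of all tested genes were called higher. All PHx lay above all Sham for 7 of these markers, against 10.6% of all tested genes. The median of the list was 1.14 on the log2 scale, against 0.03 over all tested genes. Their summed level was 1427 to 1981 CPM in PHx and 718 to 995 CPM in Sham, and none was at 0 in any library. Mylk, Des, Acta2 and Tagln, which encode contractile and filament proteins, rose by 1.24, 1.30, 1.55 and 1.98 on the log2 scale. Of 13 stellate cell and fibroblast markers 9 were called higher and 0 lower, and 12 had all PHx above all Sham, against the same shares of all tested genes. Their summed level was 5570 to 7069 CPM in PHx and 1866 to 2428 CPM in Sham, and the list had a median of 1.58 on the log2 scale. The collagen genes Col3a1 and Col1a2, Des and the proteoglycan gene Lum rose by 2.51, 2.78, 1.30 and 1.68. Des, Pdgfrb and Rgs5 belong to both lists. The counts per list under the other settings were added after the data were seen. Without PHx 4, 6 smooth muscle and pericyte genes and 8 stellate and fibroblast genes were called higher. Without Sham 1, 3 or 4 these counts were 2, 0 and 0 for the smooth muscle and pericyte list and 2, 1 and 0 for the other, and without PHx 1 they were 2 and 4, and without PHx 3 they were 3 and 6. The log2 fold changes of Notch3 and Heyl were above the medians of both lists. What part these markers have in the levels of Notch3 and Heyl was not tested.

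The libraries ordered alike in some of these genes and not in others. Pdgfrb, a growth factor receptor of pericytes and stellate cells, had 141, 121 and 218 CPM in PHx 1, 3 and 4, against 59.4, 49.5 and 37.7 CPM in Sham 1, 3 and 4. Its order among the PHx libraries was that of Notch3, with PHx 4 highest. Rgs5, a pericyte and stellate cell gene, had 459, 509 and 794 CPM in PHx, against 243, 185 and 161 CPM in Sham, in the order of Heyl in both groups. Acta2, the smooth muscle actin gene, had 39.0, 38.4 and 24.1 CPM in PHx, against 11.6, 12.6 and 10.6 CPM in Sham, so that PHx 4 was the lowest PHx library. Tagln, Cnn1, Smtn and Cspg4 also had their lowest PHx value in PHx 4, while Myh11, Des and Mylk had their highest in PHx 1. Kcnj8 and Abcc9, which encode a potassium channel of pericytes, had groups that overlapped. In PHx 1, 3 and 4 Kcnj8 had 45.2, 34.5 and 99.4 CPM and Abcc9 had 301, 286 and 442 CPM, the PHx order of Notch3. Pdgfrb, Rgs5, Kcnj8, Abcc9, Cnn1, Smtn, Cspg4 and Myh11 were named after their values were seen.

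**Figure D4:**
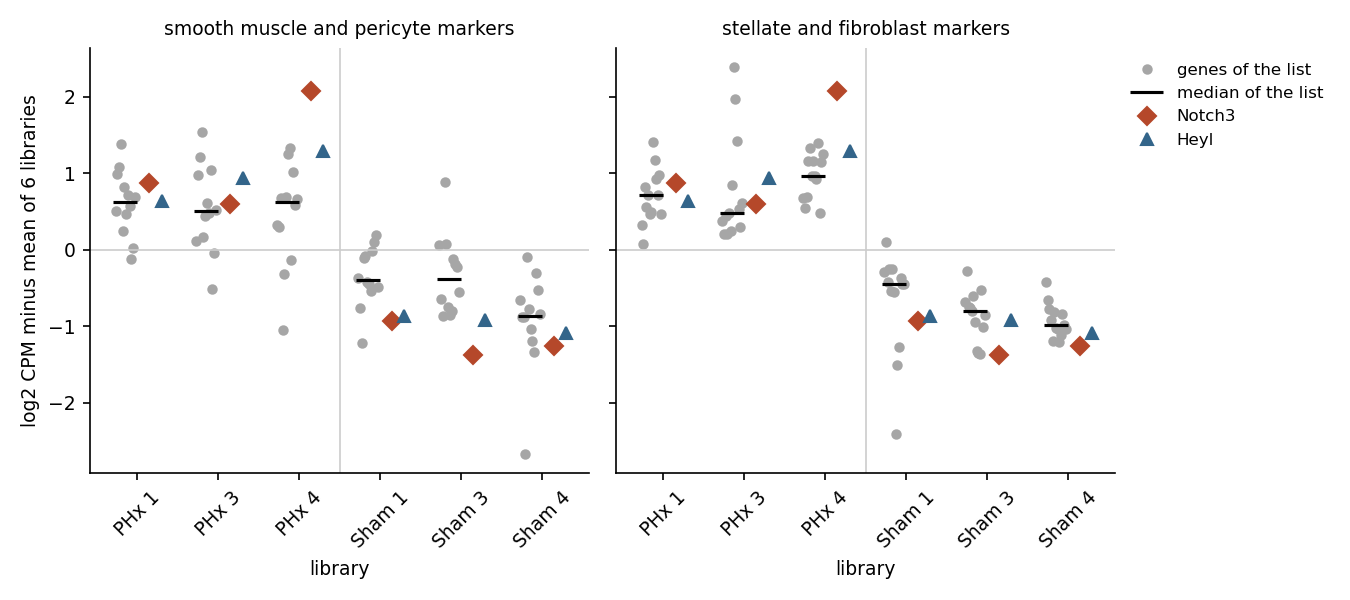
Points give log2 CPM minus the gene's mean over the 6 libraries for Notch3, Heyl and every gene of the smooth muscle and pericyte list (left) and the stellate and fibroblast list (right), with PHx left of Sham in each panel and a bar at the list median. Both list medians lie above 0 in all PHx libraries and below 0 in all Sham libraries, and Notch3 in PHx 4 is above every gene of both lists in that library.

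Most endothelial markers had lower values in PHx without passing the threshold. Of the 8 general endothelial markers edgeR called 0 in either direction, 7 had a negative log2 fold change, and the median was -0.33. The exception was Mcam, the gene of the capture protein CD146, at 0.11 with groups that overlapped. Kdr, the main VEGF receptor, had a log2 fold change of -0.71 (adjusted p = 0.276) and Egfl7, a secreted endothelial protein, one of -0.45 (adjusted p = 0.304) in edgeR's fit. The 10 sinusoidal markers had a median of -0.61 with 0 called by edgeR, and Fcgr2b and Dnase1l3 stood at -0.64 and -0.69. Only Lyve1 had a positive value in that list, at 0.16. Mcam and Lyve1 were named after their values were seen. All PHx lay below all Sham for 6 of 8 general and 9 of 10 sinusoidal markers, against 9.96% of all tested genes. In edgeR's fit the unadjusted p was under 0.05 for 3 of 8 general and 9 of 10 sinusoidal markers. It was so for 2410 of all 19033 tested genes. DESeq2 called 1 general and 4 sinusoidal markers lower, and limma-voom called 0. The values of Notch4 (-0.48), Dll4 (-0.39) and Notch1 (-0.31) lay within the range of the general endothelial list. Of 10 arterial endothelial markers edgeR called 0, DESeq2 called 2 higher, limma-voom called 0, 3 had an unadjusted p under 0.05, and the median was 0.41. Their most abundant genes per length, Nrp1 and Ltbp4, had log2 fold changes of -0.49 and -0.65. With no filter on low counts, with at least 5 CPM in 3 libraries, or without PHx 3, edgeR called 1 arterial marker higher. Of the 10 arterial markers 6 had a positive and 4 a negative log2 fold change. All PHx lay above all Sham for 3 of the 10 and below all Sham for 1, against 10.6% and 9.96% of all tested genes. Unc5b and Gja5 are arterial genes known to respond to Notch and were chosen after their values were seen. They had all PHx above all Sham, as did 10.6% of all tested genes, without passing in edgeR's fit of all libraries. Unc5b averaged 44.9 ± 3.11 CPM in PHx and 29.9 ± 0.42 CPM in Sham, and Gja5 averaged 41.3 ± 12.3 CPM in PHx and 20.7 ± 3.31 CPM in Sham (SD, n = 3 each). Their adjusted p in edgeR's fit were 0.0521 and 0.143.

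Other cell types were also present. Of 6 mesothelial markers Msln and Upk1b rose by 2.53 and 2.88 on the log2 scale, and the list summed to 94.4 to 173 CPM in PHx and 55.8 to 68.4 CPM in Sham. The list had 0 calls without PHx 1, PHx 3, Sham 1, Sham 3 or Sham 4, and 2 without PHx 4. With the replicate number as a block it had 0. In the cholangiocyte, hepatocyte, Kupffer cell, neutrophil, T and NK cell and erythroid lists edgeR called 0 genes. The medians of these lists were 0.28, -0.43, -1.37, 3.40, -0.68 and 1.64, and 1, 0, 0, 1, 0 and 2 of their genes had an unadjusted p under 0.05. DESeq2 called 2 erythroid genes higher and none in the other 5 lists, and limma-voom called 0 in all 6. The cholangiocyte markers, of interest beside Jag1, Notch2 and Hes1, summed to 347 to 647 CPM in PHx and 323 to 566 CPM in Sham. Spp1 and Krt19, the most abundant of them, had log2 fold changes of 0.03 and 0.53. Most of the sum was Spp1, which averaged 413 CPM in PHx and 406 CPM in Sham. Of the 6 cholangiocyte markers 4 had a positive and 2 a negative log2 fold change. All PHx lay above all Sham for 1 of the 6, against 10.6% of all tested genes. In the other lists the most abundant genes were Alb (-0.45) and Trf (0.19) of hepatocytes, Clec4f (-1.75) and Cd5l (-1.78) of Kupffer cells, S100a8 (3.24) and S100a9 (2.93) of neutrophils, Nkg7 (-0.61) and Cd3e (0.18) of T and NK cells, and Hba-a1 (1.89) and Hbb-bs (1.87) of red cells, given as log2 fold changes. Without PHx 4, S100a8 stood at 0.94 and S100a9 at 0.67. Slc4a1, a defining red cell gene, was at 0 in some libraries.

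The rest of the Notch pathway was examined with 48 further genes grouped by role, of which 41 passed the filter on low counts. In edgeR's fit 0 were called higher and 0 lower, 7 had an unadjusted p under 0.05, where 2410 of all 19033 tested genes did, and limma-voom called 0 as well. DESeq2 called Dtx4 higher and Mfng lower. The median log2 fold change was -0.06, against 0.03 over all tested genes, and the groups did not overlap for 8 of the 41, against 20.5% of all tested genes.

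Of the 5 other ligands only Dll1 passed the filter. It averaged 55.2 ± 11.7 CPM in PHx and 58.1 ± 11.2 CPM in Sham (SD, n = 3 each), with a log2 fold change of -0.07 ± 0.20. Dll3, which hinders Notch signalling within the cell that makes it, had 7, 8 and 10 counts in PHx 1, 3 and 4, against 0, 1 and 0 counts in Sham 1, 3 and 4, and fell below the filter. Dlk1, Dlk2 and Dner were also below it.

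The 10 genes for receptor processing had log2 fold changes between -0.27 and 0.82 and a median of -0.04. Ncstn and Psen2, subunits of the gamma-secretase complex that frees the intracellular domain, were at 222 ± 22.0 CPM in PHx and 268 ± 5.95 CPM in Sham, and at 130 ± 10.6 CPM in PHx and 147 ± 12.4 CPM in Sham (SD, n = 3 each). Their log2 fold changes were -0.27 ± 0.11 and -0.18 ± 0.11. Aph1b and Aph1c, near-identical subunit genes that may share reads, had the highest values of this group, at 0.61 ± 0.17 and 0.82 ± 0.45 on the log2 scale. They, and Dtx4 and Rbpj among the genes that follow, were named after their values were seen.

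All 5 genes that glycosylate the receptors had negative log2 fold changes, as did 8950 of all 19033 tested genes, with a median of -0.30. None passed in edgeR's fit of all libraries with the low-count filter. DESeq2, and edgeR with no filter on low counts, called Mfng lower. Mfng and Lfng encode Fringe enzymes, which extend the sugars on Notch and shift its response between Delta and Jagged ligands. Mfng averaged 33.1 ± 5.71 CPM in PHx and 55.5 ± 5.97 CPM in Sham, with all PHx below all Sham, a log2 fold change of -0.75 ± 0.15 and an adjusted p of 0.0808 in edgeR's fit. Lfng averaged 60.1 ± 22.3 CPM in PHx and 90.2 ± 13.6 CPM in Sham, and its groups overlapped.

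Genes for trafficking and turnover, 13 in number, had a median of 0.13. Numb, an inhibitor that sorts receptors, averaged 247 ± 24.9 CPM in PHx and 292 ± 29.2 CPM in Sham, and Dtx3, of the Deltex family of ubiquitin ligases, 58.6 ± 19.8 CPM in PHx and 42.7 ± 5.35 CPM in Sham. Dtx4, of the same family, had the largest value of the group at 1.04 ± 0.31 on the log2 scale, with groups that overlapped. The 8 genes of the nuclear complex had log2 fold changes between -0.28 and 0.22. Its 2 most abundant per length, the splicing and transcription cofactor Snw1 and the acetyltransferase Ep300, stood at -0.12 ± 0.11 and -0.17 ± 0.11, and Rbpj, the DNA-binding partner of all Notch receptors, at 0.22 ± 0.13.

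Of 7 genes listed as other targets 4 passed the filter. Nrarp, a Notch-induced feedback inhibitor known from endothelium, averaged 29.6 ± 5.79 CPM in PHx and 40.9 ± 6.34 CPM in Sham, with groups that overlapped and a log2 fold change of -0.47 ± 0.18. Hes6 stood at -0.22 ± 0.15, and Hes7, named outside the rule, at 0.59 ± 0.68 with groups that overlapped. Hey2, an arterial relative of Hey1 and Heyl named after its values were seen, had 2.26, 2.23 and 2.81 CPM in PHx 1, 3 and 4, against 1.51, 1.26 and 0.508 CPM in Sham 1, 3 and 4. Every PHx library was above every Sham library, as for 10.6% of all tested genes. Hes2 had no count in any library, and Hes3 and Hes5 were below the filter.

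**Figure D5:**
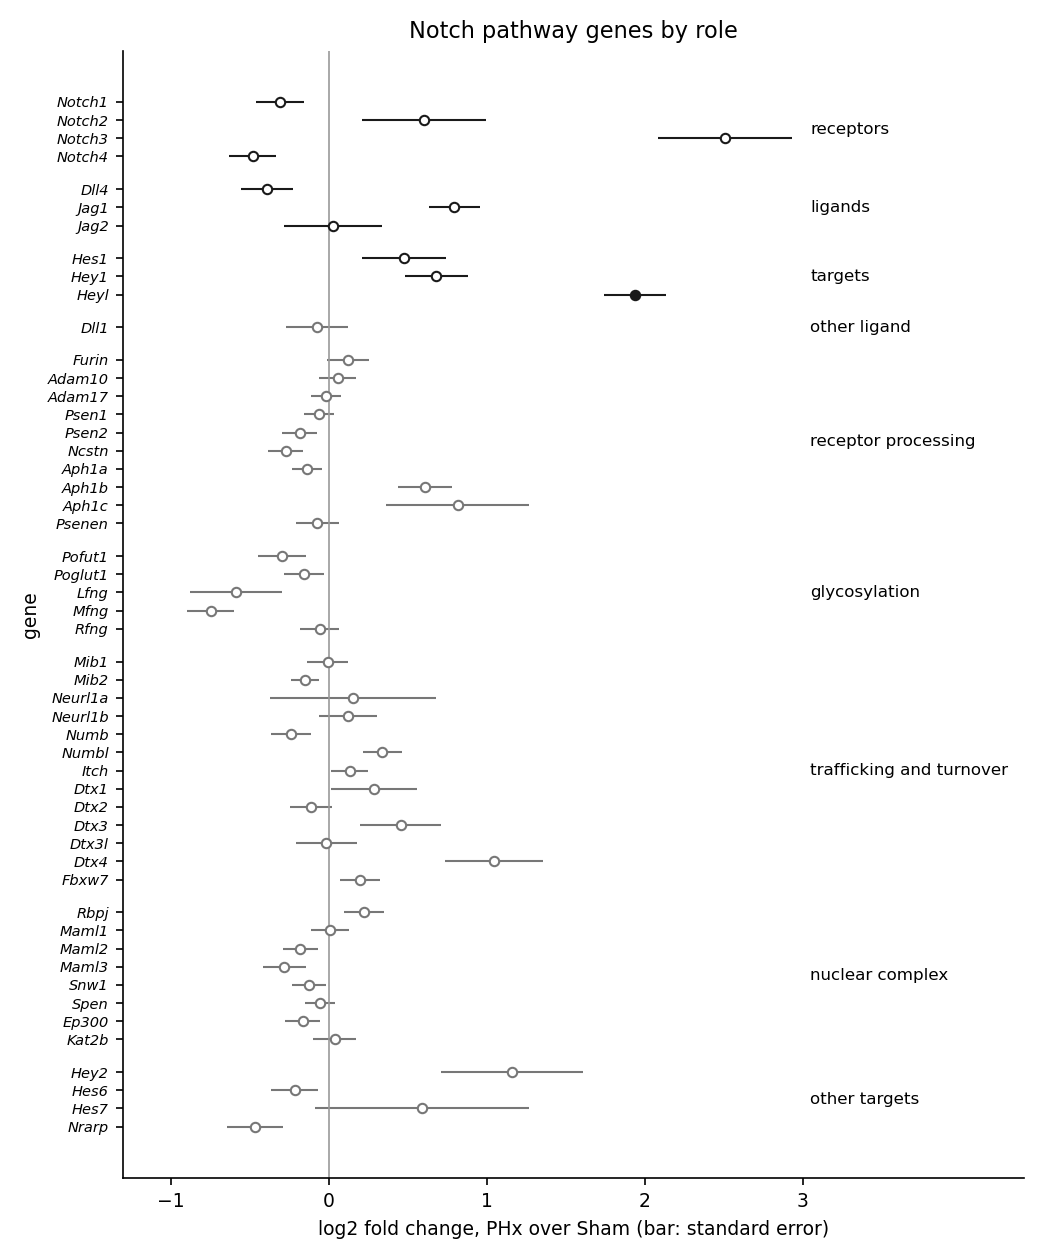
Points are log2 fold changes of PHx over Sham with standard errors for the 10 members (dark) and the 41 other pathway genes that passed the filter (grey), grouped by role. Heyl, the filled point, is the only plotted gene that passed an adjusted p of 0.05 in edgeR's fit, DESeq2 also passing Notch3, Jag1, Dtx4 and Mfng, and Notch3 lies furthest to the right.

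The genes most like each member were taken from 11029 tested genes with a mean of at least 5 CPM, by the root-mean-square difference in log2 CPM over the 6 libraries after each gene was centred on its own mean. For Notch3 the 5 nearest were Gpc6, a glypican (0.154), Shisa2 (0.180), Svep1, a matrix protein (0.267), Tnfrsf11b, which encodes osteoprotegerin (0.298), and Gucy1a2, a subunit of soluble guanylate cyclase (0.304). For Heyl they were Col5a2, a chain of type V collagen (0.117), Gucy1a2 (0.123), Efna5, an ephrin (0.141), Clip3 (0.142) and Lum, a matrix proteoglycan (0.155). Gucy1a2, which averaged 28.2 ± 8.00 CPM in PHx and 6.62 ± 0.61 CPM in Sham (SD, n = 3 each), was near both. For Dll4 the 5 nearest were Tdrp (0.0330), Nsmce2 (0.0576), Pnpla2 (0.0642), the lysosomal protease gene Ctsl (0.0647) and Clcc1 (0.0680), all with log2 fold changes between -0.50 and -0.29. All profiles share the same 6 libraries, and no gene was in the nearest sets of both Dll4 and Notch3 or Heyl. The measure includes the difference between the groups, which had opposite signs in these genes, so nothing is read from that.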

How the data were processed

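RNA of 6 libraries, 3 PHx and 3 Sham, was analysed. The deposited table holds whole-number counts per gene and RPKM values made by the authors. Per the submitters' processing notes the tools included bcl2fastq and TopHat2 2.0.13 and the build was mm10 (GRCm38); the counting program and the use of strand are not given in the sources used here. The deposited RPKM equalled count over listed length (deposited in base pairs) and library total in 100% of table entries, within 1e-06 of the value.

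The test was that of edgeR 4.0.16, run in R 4.3.3 on the counts as deposited (TMM scaling, filterByExpr, robust quasi-likelihood F-tests, group as the only term), with Benjamini-Hochberg adjustment over 19033 tested genes and a threshold of 0.05. CPM values are TMM-scaled, and averaged log2 CPM used a prior count of 2. Standard errors are the absolute log2 fold change over the square root of F. DESeq2 1.42.0 and limma 3.58.1 were alternatives. Library pairs differed by at least 52.9 in chi-square per degree of freedom, so none was a copy.

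The members and lists were chosen with earlier results of these data known. Named were all members, called pathway genes and the 2 most abundant per role, the 5 nearest genes to Notch3, Heyl and Dll4, and up to 4 called or the 2 most abundant markers per list; exceptions are stated in place.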

Additional observations from a re-analysis of the deposited data

How the results depend on the processing

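Over all genes 161 were called higher and 3 lower in PHx. Without the low-count filter there were 359 and 30, under DESeq2 721 and 126, with the replicate number as a block 14 and 1, at an adjusted p under 0.01 16 and 1, and when each library was left out in turn 0 to 160 and 0 to 9. The fewest higher calls came without Sham 4 (0), Sham 3 (6) and Sham 1 (34), followed by PHx 1 (58) and PHx 3 (82). The 1 member called higher (Heyl) became 2 with no filter (with Jag1), 3 with DESeq2 (with Notch3 and Jag1), 0 with the replicate block, 0 at an adjusted p under 0.01, and 0 to 2 when each library was left out. No member was called lower under any of these settings. Of the other pathway genes 1 was called higher with DESeq2 (Dtx4), 1 lower with DESeq2 and 1 lower with no filter (Mfng in both), against 0 in either direction otherwise. The cause of these moves was not tested. Deviations from the group mean in libraries of the same number correlated at -0.09, -0.23 and 0.03, and each PHx library had its highest correlation with a Sham library of another number. With 3 libraries per group these correlations cannot decide whether equal numbers share a day or batch, and no label says so. The block was therefore run as an alternative only. The gap between Notch3 with Heyl and the endothelial members differed between the groups by 1.93 to 2.49 when each library was left out, against 2.26 with all, and by 2.09 to 2.27 with other scaling, prior count, RPKM or members. Single genes near 0 changed sign. Jag2 was at -0.015 with upper-quartile factors, -0.0067 with no filter, -0.018 with the replicate block and between -0.24 and 0.23 when each library was left out. Spp1 was at -0.010 with upper-quartile factors, -0.0075 with no filter and between -0.23 and 0.22, Dll1 between -0.26 and 0.065, Trf between -0.12 and 0.55 and Cd3e between -0.11 and 0.50 when each library was left out. All other tested genes named by the rule kept their sign in all settings run.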

Other observations

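Non-coding genes overlap some of the members in the deposited table, and without a stated use of strand their counts cannot be told apart from those of the coding gene. Gm14207 overlaps the start of Dll4 on the opposite strand, averaged 253 counts per library and had a log2 fold change of -0.43, where Dll4 had -0.39. Gm38585 overlaps the end of Notch3 on the opposite strand, averaged 8.50 counts and had a log2 fold change of 2.34, where Notch3 had 2.51. Notch4, Jag1, Hes1, Hey1 and Heyl overlap no other gene in the table.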
